A study of Mus musculus with 2 samples.

Results

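The contacts described here join 2 neighbouring chromatin domains of mouse chromosome 1, that of Gli2 (120660001 to 120980000 on mm9, 320 kb) and that of Inhbb (120990001 to 121360000, 370 kb). They are separated by 1 bin, the boundary bin from 120980001 to 120990000. With bins of 10 kb, 32 bins of the Gli2 domain and 37 bins of the Inhbb domain gave 1184 bin pairs, of 113050 pairs in the whole map, and all 1184 are described. The domains were chosen by an insulation score, which averages the contacts that pass over a bin between the 150 kb on each side. The score was taken from these same reads, so a low level of contact across the boundary bin is how the pairs were selected and not a finding. Pairs with an end more than 150 kb from the boundary bin did not enter the score of that bin, although they entered the scores of other bins.

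Chromosomes are folded into domains within which chromatin touches itself more often than it touches the neighbouring domain. Many boundaries carry sites of the DNA-binding protein CTCF, which halts the cohesin complex as it extrudes loops, and a halted complex brings the boundary and the far edge of a domain together. Gli2 encodes a zinc-finger transcription factor that carries Hedgehog signals to target genes, a pathway that patterns the limb bud from its posterior margin. Inhbb encodes the beta-B subunit of inhibin and activin, secreted ligands of the TGF-beta family. No other gene of the GENCODE M1 annotation overlaps either domain.

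The material was limb tissue, fore- and hindlimb buds of wild-type mouse embryos at E10.5, fixed in 2% paraformaldehyde. Chromatin was cut with DpnII and religated, and the library was enriched for 1 locus with capture probes, an assay called capture Hi-C. Both samples belong to this 1 group, and their reads were merged into 1 map before deposition, so there is no standard deviation between samples and no test. The intervals below are exact Poisson 95% intervals for counting error only, since there is 1 merged map without replicates. The read pairs carry no molecular identifiers. The map shows neither which cells of the limb made a contact nor how limbs differ from each other, and it holds no expression values against which the tissue could be checked.

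The sequences at the boundary were read first, since the selection did not use them. The letters searched were CCANNAGNNGGC on both strands, a spelling of the core of the CTCF motif in which N is any base. A stricter spelling, CCANNAGGGGGC, is contained in it. In the 5 stretches shown here the match is in capitals with 24 bases on each side, each is written 5′ to 3′ on the strand of the match, and none overlaps an annotated gene. The first 4 lie in the boundary bin or the bin on either side of it, and the last lies in the outermost bin of the Gli2 domain, whose contacts with the boundary are given below.
Last bin of the Gli2 domain, chr1:120971634-120971693, plus strand: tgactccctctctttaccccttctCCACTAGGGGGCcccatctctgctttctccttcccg
Boundary bin, chr1:120980401-120980460, minus strand: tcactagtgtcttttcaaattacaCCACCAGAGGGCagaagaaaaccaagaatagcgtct
Boundary bin, chr1:120984275-120984334, plus strand: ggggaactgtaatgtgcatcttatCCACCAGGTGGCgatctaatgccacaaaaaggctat
First bin of the Inhbb domain, chr1:120991591-120991650, minus strand: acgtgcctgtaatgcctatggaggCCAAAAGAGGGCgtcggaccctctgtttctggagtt
Outermost bin of the Gli2 domain, chr1:120669054-120669113, minus strand: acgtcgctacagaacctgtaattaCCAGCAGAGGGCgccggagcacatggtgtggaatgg

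The boundary bin thus held 2 matches on opposite strands that read away from each other, with the minus-strand match on the Gli2 side and the plus-strand match on the Inhbb side. Of the 475 bins of the map, 198 (41.7%) held at least 1 match and 12.6% held 2 or more. The boundary bin with 2 bins on each side held 6 matches, and 50 of 471 such runs of 5 bins (10.6%) held as many. The stricter spelling was rarer, with 12 of 475 bins (2.53%), and the last bin of the Gli2 domain was among them. The boundary bin held no match to the stricter spelling. A match is a description of the letters and not a measured binding site. Matches to the looser spelling were in 16 of 32 bins of the Gli2 domain and 19 of 37 of the Inhbb domain.

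Contacts between the domains amounted to 74733 read pairs, 1.15% of the 6484654 of the map. Every one of the 1184 bin pairs had reads. A bin pair had a median of 58.5 read pairs and a range from 9 to 329. For comparison, 499540 read pairs had both ends in the Gli2 domain and 520781 had both in the Inhbb domain. Coverage was above that of the map on both sides: the total per bin had a median of 32108 (16364 to 55287) in the Gli2 domain and 27931 (15473 to 53940) in the Inhbb domain, against 22376 over all bins.

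Expected read pairs were computed for each bin pair from the average balanced contact of all pairs with the same separation, scaled back to reads by the coverage factors that balancing had assigned to its bins. Against 108056 expected read pairs, the block between the domains had an observed/expected ratio of 0.692 (0.687 to 0.697). With raw counts set against the mean raw count per separation, which leaves out the balancing factors, the ratio was 1.02. Relative to the mean of the map, the reduction of the whole block is thus seen in the balanced map and not in raw counts. Near the boundary bin it is seen in raw counts too, at 0.632 with both ends within 100 kb. The mean raw count of the map includes bins with few reads, whereas these domains had coverage above that of the map. The comparison with pairs inside the same domains, in raw counts too, is given below. The median ratio of a single bin pair was 0.779, with a range from 0.242 to 2.52, and 305 of the 1184 pairs (25.8%) were above 1, against 40.3% of all pairs of the map at the same separations.

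Relative to pairs inside the same 2 domains, the block was lower by a wider margin. At separations of 20 to 360 kb, which both kinds of pair cover, the block was at 0.590 (0.585 to 0.596) and pairs inside the domains, weighted to the same separations, were at 1.67. The block thus had 0.354 times (0.351 to 0.358) the contact within the domains. This ratio was 0.398 without balancing factors. The domains were cut at the boundary bin from these same reads, so less contact between than within them largely restates that choice and is a description. Of 269865 read pairs that left the Gli2 domain, 27.7% (Wilson 95% interval 27.5 to 27.9%) went to the Inhbb domain, where 32.3% were expected. Of 324768 that left the Inhbb domain, 23.0% (22.9 to 23.2%) went to the Gli2 domain, where 29.1% were expected.

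Averaged over squares around the boundary bin, contact between the domains was lowest in the smallest square and rose as the square grew, although the lowest single pairs did not adjoin the boundary bin. Where both ends lay within 50 kb of the boundary bin, 3421 read pairs gave a ratio of 0.401 (0.387 to 0.414). The ratio was 0.430 (0.422 to 0.439) with both ends within 100 kb, 0.510 (0.504 to 0.516) within 200 kb and 0.638 (0.633 to 0.643) within 300 kb. Without balancing factors, the ratios within 100, 200 and 300 kb were 0.632, 0.801 and 0.973, in the same order. Pairs whose farther end lay over 150 and up to 200 kb away were at 0.598 (0.587 to 0.609). Those with the farther end over 250 and up to 300 kb away were at 0.949 (0.934 to 0.964), and those beyond 300 kb were at 1.08 (1.06 to 1.10). The last 3 bands did not enter the score of the boundary bin.

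**Figure D1:**
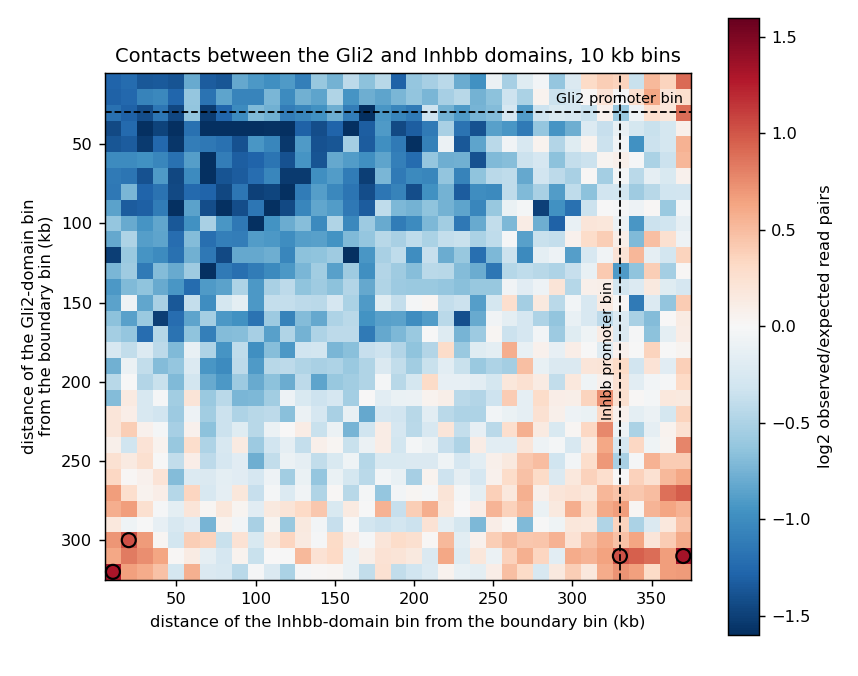
Log2 observed/expected read pairs for all 1184 bin pairs, by distance (kb) of the Gli2-domain bin (vertical axis) and the Inhbb-domain bin (horizontal axis) from the boundary bin; colours are clipped at the ends of the scale, dashed lines mark the promoter bins and circles the 4 pairs called above expected. Blue near the upper left corner, beside the boundary bin, gives way to white and red towards the outer edges of both domains.

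Both ends did not count equally. With the Inhbb end within 100 kb of the boundary bin, the ratio rose from 0.430 where the Gli2 end was 10 to 100 kb away, through 0.585 (0.572 to 0.599) at 110 to 200 kb, to 0.984 (0.966 to 1.00) at 210 to 320 kb. With the Gli2 end within 100 kb, it rose from the same 0.430 through 0.481 (0.469 to 0.492) at 110 to 200 kb to 0.749 (0.733 to 0.765) where the Inhbb end was 210 to 370 kb away. With both ends in the outer bands, the ratio was 1.11 (1.09 to 1.13). The outer part of the Gli2 domain thus met the near part of the Inhbb domain at close to the expected level. The near part of the Gli2 domain met the outer part of the Inhbb domain less often on average. This order of near and far on the 2 sides was the same under each of the 7 other ways of counting tried, with 1.54 against 0.934 without balancing factors. By that measure alone, the outer part of the Gli2 domain met the near part of the Inhbb domain more than it met the outer part, at 1.54 against 1.39. With balancing factors, the near part of the Gli2 domain was not low throughout. Its 2 bins next to the boundary bin were at 1.29 (1.19 to 1.40) with the 4 outermost Inhbb-domain bins.

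Since pairs far from the boundary bin are also farther apart, pairs of equal separation were set side by side. At 300 to 340 kb, 29 pairs with the Inhbb end within 60 kb of the boundary bin and the Gli2 end near the outer edge of its domain were at 1.21 (1.16 to 1.26). At the same separation, 30 pairs with the Gli2 end within 60 kb were at 0.779 (0.741 to 0.819), and 95 pairs with both ends farther away than 60 kb were at 0.681 (0.664 to 0.698). At 200 to 240 kb the corresponding ratios were 0.696 (0.670 to 0.724), 0.503 (0.481 to 0.525) and 0.479 (0.461 to 0.497). Pairs of equal separation thus differed by which end lay near the boundary bin. Their far ends also lay at unlike distances from the outer edges, since the domains span 320 and 370 kb. The 29 pairs include 120660001 with 120990001, at 2.48, which reaches the outer edge of the Gli2 domain. The separate parts of boundary and outer edge were not tested. Pairs at 300 to 340 kb inside the Inhbb domain were at 2.20 (2.13 to 2.28), and the 3 such pairs inside the Gli2 domain at 5.01 (4.75 to 5.28).

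By separation, the block rose from 0.425 (0.413 to 0.437) at 20 to 90 kb to 0.808 (0.797 to 0.820) at 300 to 390 kb, and passed 1 at 500 to 590 kb, with 1.07 (1.04 to 1.09). At 600 to 690 kb it was at 1.38 (1.32 to 1.44). Since the expected value is a mean over the map, a rise with separation is not particular to these domains. The blocks across both boundaries of the En1 domain rose as well. Contacts between the Steap3-Marco and En1 domains went from 0.376 (0.366 to 0.387) at 20 to 90 kb to 1.16 (1.15 to 1.18) at 600 to 690 kb. Contacts between the En1 and Insig2-Ddx18 domains went from 0.627 (0.613 to 0.641) to 1.51 (1.49 to 1.54).

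At 20 to 90 kb the Gli2-Inhbb block lay between these 2 blocks, closer to the lower one. At 300 to 390 kb it had come to the level of the En1 and Insig2-Ddx18 block, 0.795 (0.783 to 0.807), while the Steap3-Marco and En1 block was at 0.523 (0.514 to 0.532). From the shortest separations to 300 to 390 kb, the Gli2-Inhbb ratio rose by more than that of the Steap3-Marco and En1 block. The difference was not tested, since there is 1 map. The Steap3-Marco and En1 domains are longer, at 410 and 620 kb against 320 and 370 kb. Equal separations thus reach closer to the outer edges of the Gli2 and Inhbb domains. Among bins whose flanks were all well covered, the boundary bin ranked number 4 of 357 by the contact between the 50 kb on either side, counted from the lowest. By 300 kb on either side it ranked number 14 of 218. The bin below the En1 domain had the lowest ratio at every size from 50 to 300 kb, with 0.366 at 50 kb and 0.433 at 300 kb. The boundary bin was itself chosen for low contact between its flanks, so its low ranks follow from that choice and support nothing. Its rank at 300 kb also includes the pairs that the choice used.

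**Figure D2:**
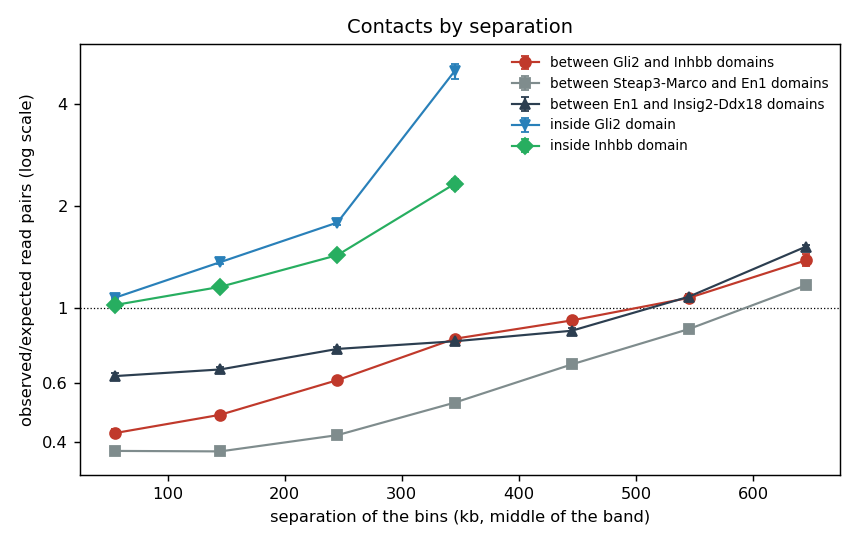
Observed/expected read pairs (log scale) by separation of the bins (kb, middle of each band) for the Gli2-Inhbb block, the 2 blocks beside the En1 domain and pairs inside each domain; bars are exact Poisson 95% intervals. The Gli2-Inhbb block climbs from 0.425 to 1.38 and stays below pairs inside its 2 domains at every separation they share. The domains were cut from these same reads, so this order largely restates that choice.

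The position of the boundary was set by the insulation score of these reads, so the low point described next restates that choice at another width. With 100 kb on either side, the ratio was 0.430 at the boundary bin, 0.473 (0.464 to 0.482) one bin towards Gli2 and 0.467 (0.459 to 0.476) one bin towards Inhbb. It reached 0.868 at 50 kb towards Gli2 and 0.802 at 50 kb towards Inhbb, where the squares compared lie partly inside 1 domain. With 5 kb bins the lowest ratio near the boundary was 0.425 (0.417 to 0.433), in the bin 120980001 to 120985000. That bin holds both matches of the boundary bin shown above.

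Single bins changed sides within 20 kb. The 2 domains were cut at the boundary bin by the score of these same reads, so this change largely restates that choice and is a description. The last bin of the Gli2 domain, 120970001 to 120980000, had a ratio of 1.5 (1.46 to 1.53) with the Gli2 domain and 0.575 (0.557 to 0.594) with the Inhbb domain, counting partners at least 30 kb away. The first bin of the Inhbb domain, 120990001 to 121000000, had 0.670 (0.646 to 0.694) with the Gli2 domain and 1.19 (1.16 to 1.23) with the Inhbb domain. The boundary bin itself, between them, had 1.16 (1.13 to 1.18) with the Gli2 domain and 0.967 (0.943 to 0.992) with the Inhbb domain. With partners at all distances counted, these became 0.904 (0.885 to 0.924) and 0.860 (0.841 to 0.879). For partners at least 30 kb away, its ratios with both sides were closer to each other than those of either neighbour.

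**Figure D3:**
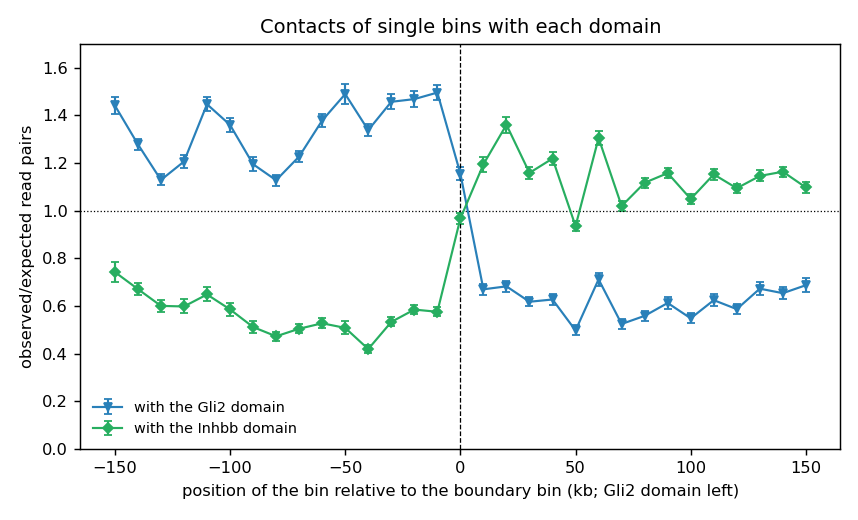
Observed/expected read pairs of each 10 kb bin with the Gli2 domain and with the Inhbb domain (partners at least 30 kb away), by position relative to the boundary bin (kb); bars are exact Poisson 95% intervals. All 15 bins on the Gli2 side are above 1 with the Gli2 domain, all 15 on the Inhbb side are below 1 with it, and the lines cross between the boundary bin and the first Inhbb bin. The domains were cut at the boundary bin from these same reads, so the change of side largely restates that choice.

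The bins nearest the boundary show what the limits of the domains include. The closest pair of the block, 120970001 with 120990001, 20 kb apart, had 329 read pairs against 799 expected, a ratio of 0.412 (0.368 to 0.458). Just outside the block, the boundary bin had 1133 read pairs with the last Gli2 bin, a ratio of 0.455 (0.428 to 0.482), and 1102 with the first Inhbb bin, a ratio of 0.573 (0.540 to 0.608). The boundary bin met the outer edges of both domains far more often than expected. It had 181 read pairs with the outermost Inhbb bin, 121350001 to 121360000, a ratio of 4.54 (3.90 to 5.25), and 308 with the bin after the Inhbb domain, a ratio of 4.94 (4.40 to 5.52). With the outermost Gli2 bin its ratio was 7.68 (7.13 to 8.26). At the same outermost Gli2 bin, the ratio fell to 2.48 (2.12 to 2.87) at the first Inhbb bin, just inside the block. In the opposite corner of the block, the last Gli2 bin with the outermost Inhbb bin was at 1.87 (1.46 to 2.35).

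A bin pair was called above expected when it had at least 10 read pairs and a lower bound of the ratio above 1.5. In the block 4 of 1184 pairs (0.338%) met this rule. Over the whole map at the same separations the share was 4.63%. A pair was called below expected when the upper bound was under 0.5, which 64 of 1184 pairs (5.41%) met, against 2.47% over the map. The block was selected for low contact, so nothing is read from the difference between these shares. The counts moved with the expected value. With medians per separation, 19 pairs were above and 42 below, and without balancing factors, 62 and 16.

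The score that placed the boundary used the 225 block pairs with both ends within 150 kb of it. Of the 64 low pairs, 54 were among these, as the selection favours. None had a Gli2 end more than 160 kb away or an Inhbb end more than 240 kb away. The Gli2 end lay in a bin of the Gli2 gene in 53 of the 64 (82.8%), against 851 of the 1184 block pairs (71.9%). The latter share also covers pairs farther from the boundary bin than any of the 64, so no excess in the gene is read from it. The bins 120960001 and 120970001, between the gene and the boundary bin, took part in 3 and 8. The bin 120940001 to 120950000, which lies wholly in the 5′ part of Gli2, took part in 15, the most of any Gli2-domain bin. The 7 Gli2-domain bins beyond the 3′ end of Gli2 took part in none. Neither did any bin in the 3′ part of the gene itself, from 120730001 to 120820000, so the end of the gene marked no change. The lowest ratios of single pairs were 0.242 (0.164 to 0.343), with 31 read pairs between 120890001 and 121030001, and 0.248 (0.184 to 0.327), with 50 read pairs between 120850001 and 121050001. The latter was at 0.601 without balancing factors. The pair 120900001 with 121100001 had 84 read pairs and a ratio of 0.265 (0.212 to 0.328), which became 1.01 without balancing factors.

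The pairs that crossed most often in read number were those nearest the boundary, which the short separation sets. The 5 with the most reads had 217 to 329 read pairs at 20 to 50 kb, and all 5 had ratios under 0.5. Without balancing factors their ratios were 0.495 to 0.862. Their Gli2-domain ends were the bins 120960001 and 120970001, between the Gli2 promoter and the boundary bin.

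The pairs that crossed most often relative to expected had their Gli2-domain end in the 3 outermost bins of that domain, all of them beyond the 3′ end of Gli2. The outermost Gli2 bin with the first Inhbb bin, 120660001 with 120990001, had 173 read pairs where 69.9 were expected, 330 kb apart. Block pairs 20 to 50 kb from it were at 1.21, so the pair stood at 2.04 times their level. These leave out pairs outside the block, of which 120660001 with the boundary bin was at 7.68. Of the 173 read pairs of 120660001 with 120990001, 83 joined the upper 5 kb of the Gli2-domain bin to the lower 5 kb of the Inhbb-domain bin. That part of the Gli2-domain bin holds the match to the CTCF motif shown above. The Gli2-domain ends of the other called pairs, 120670001 and 120680001, held no match, and 41.7% of all bins held at least 1. The outermost Inhbb bin, 121350001 to 121360000, held no match either, although it was at 4.54 with the boundary bin. Beside the pair 120660001 with 120990001, the called pair 120680001 with 121000001 had 135 read pairs and a ratio of 2.02 (1.69 to 2.39), and these 2 formed 1 cluster. This corner of the block adjoins the contact of the boundary bin with the outermost Gli2 bin. With 25 kb bins the pair reached 4.87, in a bin that also holds the boundary bin.

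The other 2 called pairs share the Gli2-domain bin 120670001 to 120680000. With the outermost Inhbb bin, 121350001 to 121360000, it had 43 read pairs where 17.1 were expected, a ratio of 2.52 (1.82 to 3.39) at 680 kb. This was the highest of the block by a margin far inside its interval, and it fell below that of 120660001 with 120990001 with 5 or 25 kb bins, without poorly covered bins and without balancing factors, where it was 1.71 against 3.16. Of the 43, 19 fell into 1 pair of 5 kb bins. With the bin 121310001 to 121320000, which holds the whole of Inhbb, it had 64 read pairs where 31.5 were expected, a ratio of 2.03 (1.56 to 2.59) at 640 kb. The outermost bins of both domains, 120660001 with 121350001, had 36 read pairs and a ratio of 1.61 (1.13 to 2.22), below the calling threshold. At these separations the whole block was above expected, at 1.38.

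Summed over the Inhbb domain, the Gli2-domain bins ranged from 0.419 to 1.24. The 3 highest were 120670001 at 1.24 (1.19 to 1.29), 120680001 at 1.22 (1.17 to 1.27) and 120700001 at 1.18 (1.13 to 1.23), whose intervals overlap. The 3 lowest were 120940001 at 0.419 (0.403 to 0.435), 120900001 at 0.472 (0.454 to 0.492) and 120910001 at 0.504 (0.485 to 0.524), all within Gli2. The lowest bin did not adjoin the boundary bin. The 2 bins nearest to it, 120960001 and 120970001, were at 0.585 and 0.557.

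Along the gene, the ratio with the Inhbb domain rose from the 5′ to the 3′ end of Gli2. The 2 bins between the Gli2 promoter bin and the boundary bin were together at 0.570 (0.557 to 0.583). The 23 bins that overlap Gli2 were at 0.639 (0.633 to 0.645), and the 7 bins beyond its 3′ end at 1.09 (1.07 to 1.10). Within the gene, the bin of the 3′ end, 120730001 to 120740000, was at 0.944. Over the 32 bins, the ratio had a rank correlation (Spearman's rho) of 0.948 with distance from the boundary bin, 0.052 with the total count of the bin and −0.184 with its GC content. These are descriptions over bins that share partners.

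Summed over the Gli2 domain, the Inhbb-domain bins ranged from 0.497 to 1.30. The highest were 121350001 at 1.30 (1.22 to 1.37), 121300001 at 1.15 (1.09 to 1.21) and 121330001 at 1.06 (1.01 to 1.12). The lowest were 121030001 at 0.497 (0.476 to 0.518), 121050001 at 0.524 (0.503 to 0.545) and 121080001 at 0.548 (0.526 to 0.570), in the stretch without annotated genes between the boundary and Inhbb. That gene-free stretch of 32 bins was at 0.668 (0.663 to 0.673), the bin of Inhbb at 1.04 (0.991 to 1.09), and the 4 bins upstream of Inhbb at 1.07 (1.04 to 1.10). Here the rank correlation of the ratio was 0.847 with distance from the boundary bin and −0.670 with the total count of the bin. The separate parts of distance and coverage were not tested.

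**Figure D4:**
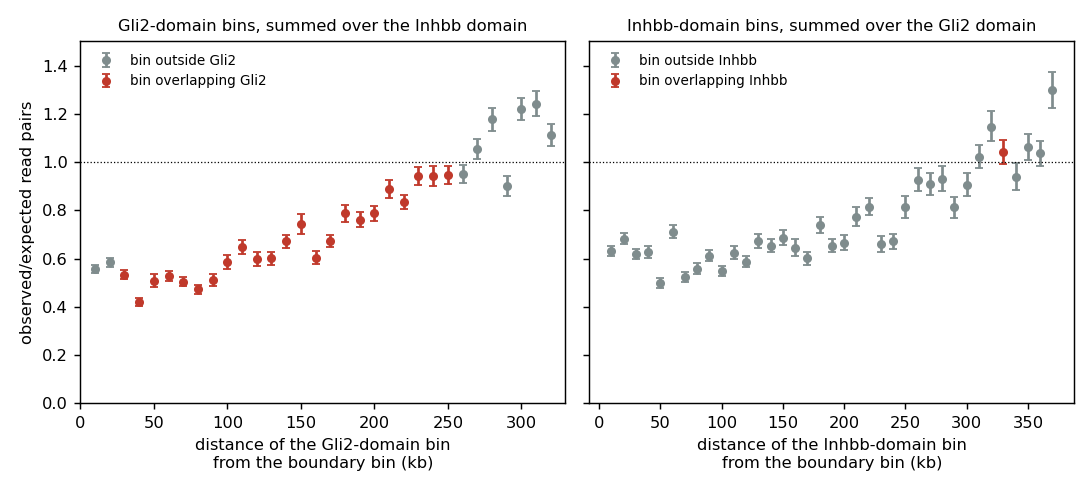
Observed/expected read pairs of each bin summed over the other domain, by distance of the bin from the boundary bin (kb), for the 32 Gli2-domain bins (left) and the 37 Inhbb-domain bins (right); red points overlap the gene and bars are exact Poisson 95% intervals. On both sides the lowest bins lie 40 to 100 kb from the boundary bin rather than next to it, and the values climb to or above 1 at the outer edges.

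The promoters of both genes lie at unlike distances from the boundary, and their contacts with the other domain are given side by side. Gli2 (ENSMUSG00000048402.8) is transcribed from the minus strand, from 120950196 down to 120730709, so that its promoter is the end nearest the boundary, 29.8 kb away. The start lies 195 bases into the bin 120950001 to 120960000, and most of that bin is sequence upstream of the gene. Inhbb (ENSMUSG00000037035.5) is also on the minus strand, from 121318825 down to 121312042, with its promoter in the bin 121310001 to 121320000, 328.8 kb from the boundary bin.

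The Gli2 promoter bin had 23746 read pairs with other bins. Of these, 3016 went to the Inhbb domain, a share of 12.7% (Wilson 95% interval 12.3 to 13.1%) where 22.6% was expected. The ratio was 0.533 (0.514 to 0.552). The bins on either side, 120940001 and 120960001, were at 0.419 and 0.585, so this level was not particular to the promoter bin. Its own domain took 57.8% (57.1 to 58.4%), where 51.5% was expected. Among the 37 Inhbb-domain bins, the ratio with the Gli2 promoter bin had a median of 0.583 and a range from 0.298 to 1.86. In 27 of the 37 (73.0%) the upper bound was under 1, against 47.4% of all block pairs and 31.5% of pairs over the map at the same separations. These shares were not taken at equal distance from the boundary bin. In 1 of the 37 the lower bound was above 1, namely the outermost bin 121350001 to 121360000, with 69 read pairs and 1.86 (1.45 to 2.36).

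The Inhbb promoter bin had 20559 read pairs with other bins, of which 1685 went to the Gli2 domain. This share of 8.20% (7.83 to 8.58%) was near the expected 7.69%, and the ratio was 1.04 (0.991 to 1.09). Over the 32 Gli2-domain bins the ratio had a median of 1.01 and a range from 0.533 to 2.03. The lower bound was above 1 in 6 bins (18.8%), against 7.77% of all block pairs and 19.8% over the map. The upper bound was under 1 in 3 bins (9.38%). Of the 6, 5 lay beyond the 3′ end of Gli2 and the other was the last bin of the domain, next to the boundary, with 99 read pairs and 1.28 (1.04 to 1.56). The Inhbb promoter lies far from the boundary, at a distance where other bins of its domain had like levels with the Gli2 domain.

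The 2 promoter bins, 360 kb apart, had 46 read pairs with each other where 69.5 were expected, a ratio of 0.662 (0.485 to 0.883). Block pairs 20 to 50 kb from it were at 0.903. Of the bins of the Inhbb domain beside that of its promoter, 121300001 had 53 read pairs with the Gli2 promoter bin, a ratio of 1.05 (0.784 to 1.37), and 121320001 had 47, a ratio of 0.945 (0.695 to 1.26). These intervals overlap that of the promoter pair. With 25 kb bins the pair that holds both bin centres was at 1.05, so the low value was not seen at that width.

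**Figure D5:**
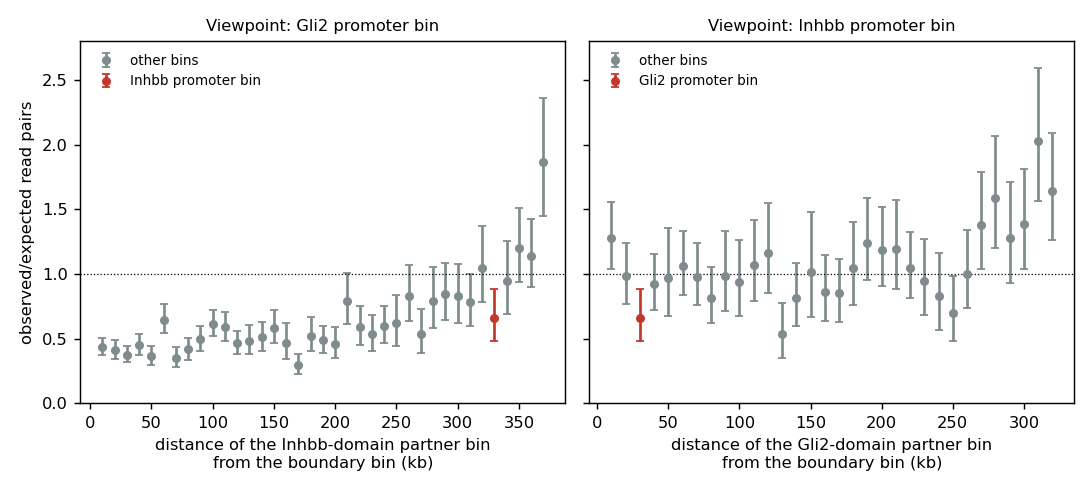
Observed/expected read pairs of the Gli2 promoter bin with each Inhbb-domain bin (left) and of the Inhbb promoter bin with each Gli2-domain bin (right), by distance of the partner from the boundary bin (kb); red marks the pair of both promoter bins and bars are exact Poisson 95% intervals. Most partners of the Gli2 promoter bin are below 1 (median 0.583), those of the Inhbb promoter bin scatter around 1 (median 1.01), and the promoter pair is at 0.662.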

How the data were processed

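Capture Hi-C of 2 wild-type limb samples was analysed as 1 merged map. The counts of read pairs per bin pair were deposited without normalization; per the file names, HiCUP and a mapping quality minimum of 30 were applied. The deposited balanced contact signal is named KR there, read here as Knight-Ruiz balancing, in which every bin has the same total. The submitters' processing notes list Bowtie2 2.3.4.1, Juicer 1.7.6, SAMtools and the build mm9, with no roles. Probe positions were not used here.

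Genes came from GENCODE M1 and bases from NCBIM37, the assembly of mm9. The main bins were 10 kb, with 5 and 25 kb as alternatives. Balancing factors were recovered from the ratio of counts to KR values, and missing bin pairs were taken as 0. Domains were limited by local minima of the insulation score with a prominence of at least 0.2. Bins under 25% of the median total (56 of 475) count as poorly covered, and 0 of them lie in these domains. Named were the called clusters, the 5 pairs with most reads, the 3 with the lowest upper bounds, the promoter and outer edge pairs, and the 3 highest and lowest bins of each domain. The members, lists and rules were chosen with earlier results of these data known. The measures were also run on simulated counts drawn from the same expected values, which cannot check balancing or the expected values themselves. Computation used Python 3.11.15, numpy 2.4.6, pandas 2.3.3 and scipy 1.17.1.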

Additional observations from a re-analysis of the deposited data

How the results depend on the processing

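Leaving out a sample could not be run, since the map is merged, and no alternative measures the difference between embryos. No paired analysis was possible because both samples of the only group were merged before deposition. Changes were judged against counting error, which is small here, so that many modest moves exceed it. Unless the text says that a move comes by construction, its cause was not tested.

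The block ratio of 0.692 was 0.782 with medians per separation, 0.683 with the block left out of the expected value, 0.671 and 0.730 with 5 and 25 kb bins, 0.706 without poorly covered bins, 0.707 on balanced values and 0.703 without the bins next to the boundary. It turned to 1.02 on raw counts by separation alone. Relative to pairs inside the domains, 0.354 became 0.358 with medians, 0.398 on raw counts, 0.360 with 25 kb bins and 0.335 on balanced values.

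For both ends within 100 kb, the ratio was 0.446 with medians, 0.632 on raw counts, 0.418 with 5 kb bins and 0.448 without poorly covered bins. Within 200 kb it was 0.559 with medians, 0.801 on raw counts, 0.503 with the block left out, 0.498 and 0.519 with 5 and 25 kb bins, 0.536 without poorly covered bins and 0.561 for the outer 100 kb alone. Within 300 kb, in the same order, it was 0.718, 0.973, 0.630, 0.621, 0.649, 0.656 and 0.854, and 0.644 on balanced values.

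The 4 pairs called above expected were 30 at a threshold of 1.2, 1 at a threshold of 2, 19 with medians, 62 on raw counts, 30 with 5 kb bins and 0 with 25 kb bins, where the number of pairs also differs by construction. The 64 called below were 296 at a threshold of 0.75, 0 at a threshold of 0.25, 42 with medians, 43 without poorly covered bins, 16 on raw counts, 152 with 5 kb bins and 12 with 25 kb bins.

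The share of the Gli2 promoter bin was 11.4% and 15.0% with 5 and 25 kb bins and 14.6% with 1 more bin on each side. That of the Inhbb promoter bin was 7.77% and 9.0% with 5 and 25 kb bins, 7.14% on balanced values and 9.25% with 1 more bin on each side.

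The block between the Steap3-Marco and En1 domains, 0.589, was 0.669 with medians, 0.830 on raw counts, 0.584 with the Gli2-Inhbb block left out, 0.578 and 0.596 with 5 and 25 kb bins and 0.603 on balanced values. That between the En1 and Insig2-Ddx18 domains, 0.864, was in the same order 0.980, 1.11, 0.856, 0.845, 0.878 and 0.850, and so turned on raw counts.

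With the stricter spelling of the motif the boundary bin held 0 matches and 2.53% of bins held any. Of 91 values of the named pairs under the alternatives, 66 stayed within their intervals, 23 left them and 2 turned: 120900001 with 121100001, at 1.01 on raw counts, and the promoter pair, at 1.05 with 25 kb bins. For single pairs, balanced values give the same ratio by construction.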
